A study of Mus musculus with 18 samples.

Results

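Whole aortas that stayed free of aneurysm under angiotensin II (no AAA, the resistant aortas, 7 arrays) were compared with whole aortas of saline-infused mice (6 arrays). These 13 of the 18 arrays of the series were chosen by their sample labels, with 1 mouse per array. All mice were male and ApoE-/-, that is, they lacked apolipoprotein E and carried high plasma cholesterol, and were 13 to 14 weeks old at the start. The no AAA and AAA mice received angiotensin II at 1.44 μg/kg/min through an osmotic minipump, and the control mice saline, for 4 weeks. An infused mouse was placed in the no AAA group because no aneurysm had formed, so this group was defined by outcome. The 5 AAA arrays entered the fit for the spread between arrays, and their values are given only beside those of the no AAA arrays. Both differences use the same saline arrays.

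Each value is the log2 of a probe's signal over the median signal of its array, called log2 signal here, so that 1 unit is a 2-fold difference. The lowest signal counted as detected lay near a log2 signal of 0.2, and values near or below it are background. No AAA 1 to 6 were hybridized on BeadChip 2 and all saline arrays on BeadChip 1, while no AAA 7 shared BeadChip 3 with the AAA arrays, so BeadChip and group cannot be told apart in this comparison. No AAA 7 had lower values than no AAA 1 to 6 for many mitochondrial genes and is given on its own where this touches a result. Between 19438 and 20676 probes were detected per no AAA array and between 18647 and 19661 per saline array. At an adjusted p under 0.05 (limma, Benjamini-Hochberg over 21434 tested probes), no AAA aortas exceeded saline aortas for 7498 probes (35.0%) and lay below them for 2155 (10.1%). Higher probes whose 2 groups of arrays did not overlap numbered 3135 (14.6%), and such lower probes 1145 (5.34%). The balance of higher and lower calls moved with the scaling. Higher calls were 77.7% of all calls here, 59.9% (4349 higher and 2913 lower) after quantile normalization, 60.0% (4360 and 2907) after normexp background correction, and 41.9% (2940 and 4082) when arrays were scaled to the median of the probes detected on all arrays. The median of all tested probes was 0.155 here and -0.02 under that last scaling. The differences below are best read against it. In AAA against saline aortas, 30.5% of probes were higher and 9.22% lower, and in no AAA against AAA aortas 8.46% were higher and 10.8% lower. Gene names were held for 7.3% of the tested probes. Except for control genes and transcripts of the mitochondrial genome, the study had named these probes as different on these same arrays, so a count of called genes in a list is not independent evidence of its direction.

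The aortic wall is built of smooth muscle cells that contract through α-actin and its regulators, between layers of elastin and collagen and under a lining of endothelium. It is surrounded by fat, partly brown in mice, and receives sympathetic nerve fibres. Angiotensin II acts on smooth muscle through its type 1 receptor, which raises calcium, activates the phosphatase calcineurin and drives early response genes. It also acts on matrix production through transforming growth factor β. The molecular clock, a loop of activators (Arntl with Clock or Npas2) and of repressors that they switch on, runs in each of these cells.

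All 9 clock genes described here passed the test, 3 of them higher and 6 lower in no AAA aortas, against a background of 35.0% higher and 10.1% lower. The 3 that rose act as activators of the loop (Arntl, Npas2) or as a repressor at D-box elements (Nfil3). Those that fell include Dbp and Tef, the activators at D-box elements. The study had listed 8 of the 9 as different between no AAA and saline aortas. Of 23 clock genes looked for, only these 9 had a named tested probe. Motifs were looked for in the 250 bases before the start site of the clock genes, since these genes moved in both directions: the E-box CACGTG, bound by Arntl dimers, the motif AGGTCA, bound by nuclear receptors, and the D-box TTATGTAA. Both strands were searched, and no motif overlaps another. RefSeq promoters (GRCm38.p6) were held for 7 of the 9 genes, in 9 windows, of which 3 had a match. Over 32851 mouse promoter windows of the same length, 6.02% hold the E-box, 14.0% the nuclear receptor motif and 0.819% the D-box. The windows with a match are shown 5′ to 3′ on the strand of the gene with the motif in capitals.
Tef, window 1, chr15:81802423-81802672, plus strand, E-box: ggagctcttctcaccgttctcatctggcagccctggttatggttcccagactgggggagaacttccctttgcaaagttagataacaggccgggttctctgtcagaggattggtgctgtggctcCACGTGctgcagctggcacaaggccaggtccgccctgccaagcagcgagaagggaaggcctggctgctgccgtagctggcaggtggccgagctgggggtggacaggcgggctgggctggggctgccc
Tef, window 2, chr15:81811164-81811413, plus strand, E-box: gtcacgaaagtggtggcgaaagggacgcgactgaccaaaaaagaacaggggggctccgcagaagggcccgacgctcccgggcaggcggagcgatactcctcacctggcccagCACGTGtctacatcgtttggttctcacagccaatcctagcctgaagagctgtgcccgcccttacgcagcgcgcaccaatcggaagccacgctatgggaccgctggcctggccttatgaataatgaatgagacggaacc
Nfil3, chr13:52981040-52981289, minus strand, nuclear receptor motif in reverse: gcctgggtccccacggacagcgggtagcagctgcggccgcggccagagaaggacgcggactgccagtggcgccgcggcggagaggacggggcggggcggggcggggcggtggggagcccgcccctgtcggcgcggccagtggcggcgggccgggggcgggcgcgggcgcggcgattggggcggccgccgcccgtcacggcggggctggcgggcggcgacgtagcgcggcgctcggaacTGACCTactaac
The E-box starts 127 and 138 bases before the 2 start sites of Tef, and the motif of Nfil3 lies 12 bases before its start site. A match describes these letters only.

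Arntl had log2 signals of 2.6, 3.41 and 4.17 on no AAA arrays (lowest, median and highest, as in all such triples), against 0.21, 1.16 and 1.33 on saline arrays. All no AAA arrays lay above all saline arrays, and the difference of 2.37 (SE 0.26, adjusted p = 2.3e-06) is a 5.17-fold higher signal. Npas2, the partner that can replace Clock, was at 1.68, 1.88 and 2.69 in no AAA aortas and at -0.1, 0.35 and 0.92 in saline aortas, where it was near background, a difference of 1.71 (SE 0.23, adjusted p = 1.7e-05). Nfil3, whose promoter is shown above, rose to 3.82, 4.93 and 5.75 in no AAA aortas, against 2.55, 3.33 and 3.69 in saline aortas, without overlap (1.6, SE 0.26, adjusted p = 9.5e-05). Dbp fell to 3.99, 4.59 and 6.31 in no AAA aortas, against 6.32, 6.56 and 6.9 in saline aortas (-1.69, SE 0.29, adjusted p = 1.8e-04). Its highest no AAA array lay just under the lowest saline array. Tef, with an E-box in both windows, had 4.79, 5.36 and 5.7 in no AAA aortas and 6.18, 6.25 and 6.8 in saline aortas (-1.06, SE 0.15, adjusted p = 3.5e-05), again with no overlap. Bhlhe40, an E-box repressor, was at 3.9, 4.83 and 5.02 in no AAA aortas, against 5.22, 5.84 and 6.18 in saline aortas (-1.07, SE 0.21, adjusted p = 4.2e-04), also without overlap. Per2, a repressor of the loop (-0.64, SE 0.17, adjusted p = 0.0054), Usp2, a deubiquitinase with a clock-controlled transcript (-1.19, SE 0.23, adjusted p = 4.5e-04), and the deadenylase Noct (-1.2, SE 0.26, adjusted p = 0.0010) also fell, with overlapping arrays. Of the 9 genes, 3 were higher and 5 lower in AAA than in saline aortas, and none differed between no AAA and AAA aortas at this threshold. For Arntl the difference between no AAA and AAA aortas was 0.19 (SE 0.27, adjusted p = 0.68). The hour at which the aortas were collected is not given in the sources used here.

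**Figure D1:**
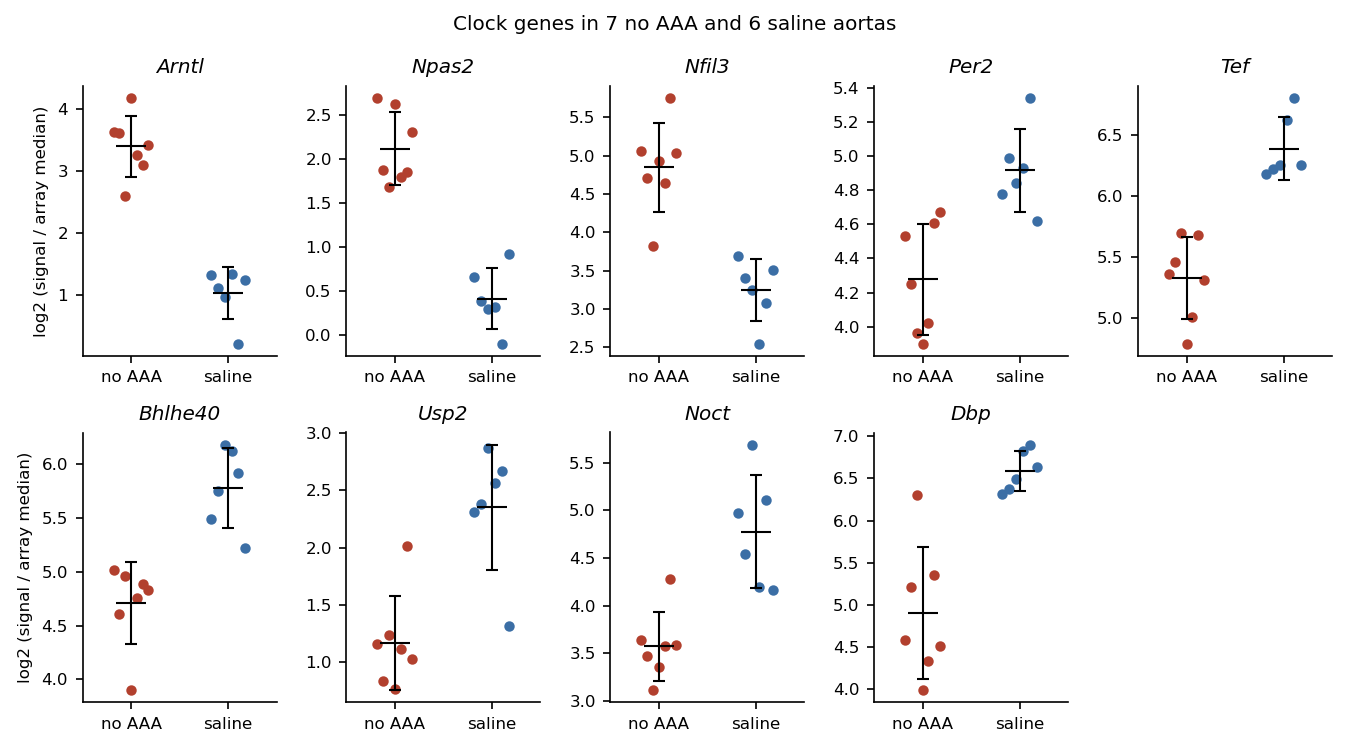
Log2 signal (signal over array median) of the 9 clock genes on each of 7 no AAA arrays (red) and 6 saline arrays (blue), with the mean and SD of each group as bars and a separate vertical scale for each gene. Arntl, Npas2 and Nfil3 lie higher on all no AAA arrays than on any saline array, and Dbp, Tef and Bhlhe40 lower, while single arrays overlap for Per2, Usp2 and Noct.

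Of the 9 smooth muscle contractile genes described here, 8 rose in no AAA aortas, beside 35.0% of all probes, and none fell. The median difference of the 9 was 1.16, against 0.155 for all tested probes. In AAA aortas 1 rose and 1 fell, with a median of 0.05. The difference between the infused groups was itself tested, and all 9 were higher in no AAA than in AAA aortas, with a median of 1.04. The study had listed 7 of these genes as different between no AAA and saline aortas. Probes had also been named through its lists for no AAA against AAA aortas, so the count of 9 is not independent evidence there. Of 24 contractile genes looked for, 9 had a named tested probe. Acta2, smooth muscle α-actin, had log2 signals of 4.85, 5.03 and 5.39 on no AAA arrays, against 3.34, 3.68 and 4.05 on saline arrays. No array of either group reached the range of the other, and the difference was 1.34 (SE 0.22, adjusted p = 1.1e-04). The AAA mean was 3.92, and no AAA aortas exceeded AAA aortas by 1.12 (SE 0.23, adjusted p = 0.0026). Cald1, which binds actin and holds back contraction, was at 4.07, 4.61 and 4.95 in no AAA aortas and 3.13, 3.31 and 3.52 in saline aortas (1.25, SE 0.14, adjusted p = 3.8e-06). Kcnmb1, the β subunit of the calcium-gated potassium channel of smooth muscle, was at 4.77, 5.01 and 5.29 in no AAA aortas and 3.54, 3.85 and 4.18 in saline aortas (1.18, SE 0.17, adjusted p = 3.4e-05). Each of these was again without overlap. Synpo2, an actin-bundling protein, was at 3.31, 3.57 and 3.76 in no AAA aortas, against 1.98, 2.37 and 2.99 in saline aortas (1.14, SE 0.23, adjusted p = 7.1e-04), and exceeded AAA aortas by 1.44 (SE 0.25, adjusted p = 7.4e-04). The cytoskeletal linker Dst (1.23, SE 0.16, adjusted p = 8.9e-06), the actin-severing protein Dstn (1.16, SE 0.16, adjusted p = 2.3e-05) and Pdlim3, an α-actinin partner (1.07, SE 0.16, adjusted p = 3.5e-05), rose without overlap too. Those 7 genes without overlap make 7 of 9, beside 14.6% of all probes.

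The genes of the list that regulate myosin phosphatase were less separated. Ppp1r14a, its inhibitor, was at 3.9, 4.9 and 5.25 in no AAA aortas and 3.77, 4.14 and 4.51 in saline aortas (0.65, SE 0.21, adjusted p = 0.017). Its call ended under quantile normalization and normexp correction (adjusted p = 0.083 for each), scaling to probes detected on all arrays (0.074) and BeadChip as a random block (0.051). No AAA 7 was its lowest array (3.9). Another, dimmer probe of Ppp1r14a differed by 0.95 (adjusted p = 0.0019) in the fit used here, and was not followed through the other settings. Ppp1r12a, the targeting subunit, was at 4.76, 5.37 and 5.93 in no AAA aortas, against 4.76, 5.06 and 5.4 in saline aortas and did not pass the test (0.37, SE 0.19, adjusted p = 0.11), but did without no AAA 3 (0.030). With BeadChip as a fixed block, a fit of no AAA against AAA aortas that rests on no AAA 7, all 9 contractile genes still had a difference above 0, and 4 of them passed the test. Acta2 then differed by 1.21 (adjusted p = 0.14), Dst by 1.0 (0.055) and Ppp1r14a by 0.12 (0.86).

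All 10 named genes that respond to angiotensin II or to calcineurin rose in no AAA aortas, with a median difference of 1.11, and 8 of them without overlap. Over all probes 35.0% were higher, and 14.6% higher without overlap. The study had listed 7 of the 10 for this comparison, and only 10 of 23 genes looked for had a named tested probe. In AAA aortas 7 of the 10 rose, with a median of 0.8. Rcan1, a calcineurin inhibitor and itself a calcineurin target, was at 3.39, 3.76 and 4.42 in no AAA aortas and 1.39, 2.53 and 3.09 in saline aortas (1.45, SE 0.34, adjusted p = 0.0020). Rnd3, a small GTP-binding protein, was at 5.17, 5.59 and 6.35 in no AAA aortas, against 3.99, 4.35 and 4.76 in saline aortas (1.34, SE 0.18, adjusted p = 1.5e-05). Rrad, an inhibitor of L-type calcium channels, was at 4.96, 5.38 and 5.71 in no AAA aortas and 3.51, 3.99 and 4.73 in saline aortas (1.3, SE 0.22, adjusted p = 1.4e-04). All of these separated the groups without overlap. Rnd3 also exceeded AAA aortas, by 0.81 (SE 0.19, adjusted p = 0.0053), and so did Rrad (0.94, SE 0.23, adjusted p = 0.0078). Rgs4, a regulator that speeds the end of G protein signalling, rose to 5.24, 5.65 and 5.71 in no AAA aortas, against 4.56, 4.96 and 5.06 in saline aortas (0.71, SE 0.18, adjusted p = 0.0042), and was 1.12 (SE 0.19, adjusted p = 7.4e-04) above AAA aortas. Rgs1, a related regulator found in leukocytes, ran the other way between the infused groups. It was at 1.57, 2.0 and 2.53 in no AAA and 0.28, 0.69 and 1.4 in saline aortas (1.18, SE 0.26, adjusted p = 0.0012), and lay below AAA aortas (-0.98, SE 0.27, adjusted p = 0.016). Among transcription factors of the early response, Fos was at 5.36, 5.63 and 6.35 in no AAA aortas and 4.07, 4.56 and 5.33 in saline aortas (1.04, SE 0.24, adjusted p = 0.0019), and Junb differed by 0.69 (SE 0.12, adjusted p = 2.3e-04). Junb was also lower in no AAA than in AAA aortas (-0.62, SE 0.13, adjusted p = 0.0027). Egr2 differed by 0.59 (SE 0.21, adjusted p = 0.028), and lost its call without saline 3, 4 or 5 or without no AAA 1 or 3 (adjusted p of up to 0.066), and under 6 of the other settings, with 0.12 when arrays were scaled to the probes detected on all arrays. The stretch-responsive gene Ankrd1 (1.2, SE 0.22, adjusted p = 3.3e-04) and the phosphodiesterase Pde4b (1.01, SE 0.16, adjusted p = 8.0e-05) rose in no AAA aortas without overlap. With BeadChip as a fixed block, none of the 3 genes higher in no AAA than in AAA aortas was called, although the differences were 0.92 for Rnd3 (adjusted p = 0.13), 1.32 for Rrad (0.063) and 1.22 for Rgs4 (0.084), and of the lower genes Junb passed (0.028) but not Rgs1 (0.10).

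**Figure D2:**
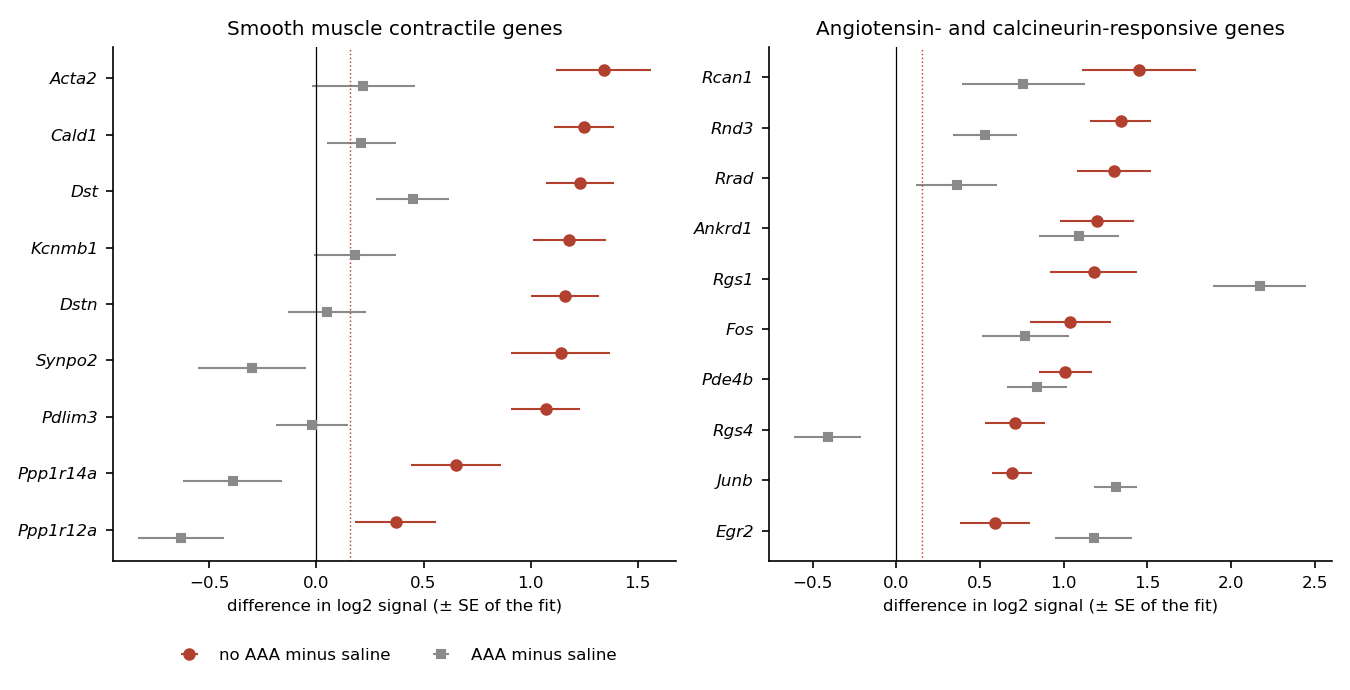
Difference in log2 signal from saline aortas (horizontal axis, ± SE of the fit) of 9 contractile genes (left) and 10 genes that respond to angiotensin II or calcineurin (right), for no AAA aortas (red circles, n = 7) and AAA aortas (grey squares, n = 5) against the same 6 saline aortas. The dotted line is the median of all tested probes in no AAA aortas, 0.155. Acta2 stands at 1.34 in no AAA and 0.22 in AAA aortas, while Rgs1, Junb and Egr2 stand further right in AAA aortas.

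Ligands and modulators of the transforming growth factor β, bone morphogenetic protein and Wnt pathways were mostly higher in no AAA aortas. Of 20 named genes 19 rose and 1 fell, beside 35.0% and 10.1% of all probes, with a median difference of 1.07. Arrays did not overlap for 18 of the risen genes, beside 14.6% of all probes. The study had listed 18 of the 20 for this comparison. In AAA aortas 15 rose and 1 fell, with a median of 0.74. Tgfb2, a ligand, was at 5.17, 5.53 and 5.81 in no AAA aortas, against 3.99, 4.34 and 4.54 in saline aortas (1.25, SE 0.15, adjusted p = 6.9e-06). Tgfb3, another ligand, was at 4.3, 4.76 and 5.1 in no AAA aortas and 3.6, 3.68 and 4.06 in saline aortas (1.0, SE 0.12, adjusted p = 4.4e-06). Both ligands were higher on every no AAA array than on any saline array, and Tgfb2 was also higher in no AAA than in AAA aortas (0.53, SE 0.16, adjusted p = 0.027). Ltbp1, which stores the latent ligand in the matrix, differed from saline aortas by 1.03 (SE 0.16, adjusted p = 4.9e-05) and from AAA aortas by 0.76 (SE 0.16, adjusted p = 0.0033). The activin subunit Inhbb rose by 1.25 (SE 0.21, adjusted p = 1.6e-04), with a log2 signal of 1.45, 2.13 and 2.79 in no AAA aortas and 0.52, 0.82 and 0.98 in saline aortas, but stood lower than in AAA aortas (-0.72, SE 0.23, adjusted p = 0.030). Bmp6, a bone morphogenetic protein, rose to 2.18, 2.56 and 2.97 in no AAA aortas, against 1.35, 1.46 and 1.66 in saline aortas (1.05, SE 0.22, adjusted p = 8.0e-04). Its difference between no AAA and AAA aortas was 0.95 (SE 0.23, adjusted p = 0.0065). Acvr1c, the type 1 receptor ALK7 of fat cells, was the gene that fell, to 0.12, 0.33 and 0.93 in no AAA aortas, against 0.94, 2.2 and 2.51 in saline aortas (-1.57, SE 0.22, adjusted p = 2.0e-05), so that it was near background on most no AAA arrays.

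Inhibitors of Wnt signalling rose together in no AAA aortas. Sost, sclerostin, was at 3.16, 3.38 and 3.82 in no AAA aortas and 2.02, 2.26 and 2.7 in saline aortas (1.12, SE 0.22, adjusted p = 6.5e-04), and the AAA mean was 2.01. Wif1, a secreted Wnt-binding protein, was at 4.64, 5.0 and 5.25 in no AAA aortas, against 3.62, 3.92 and 4.28 in saline aortas (1.03, SE 0.22, adjusted p = 9.3e-04). Both were higher in no AAA than in AAA aortas, Sost by 1.41 (SE 0.24, adjusted p = 6.8e-04) and Wif1 by 0.84 (SE 0.23, adjusted p = 0.014). The secreted frizzled-related proteins Sfrp2 (1.15, SE 0.26, adjusted p = 0.0015), Sfrp4 (0.84, SE 0.2, adjusted p = 0.0025) and Sfrp1 (0.68, SE 0.14, adjusted p = 8.5e-04) also rose, but Sfrp1 was lower in no AAA than in AAA aortas (-0.44, SE 0.15, adjusted p = 0.045). Scx, a transcription factor of tendon and valve matrix, was at 2.76, 3.34 and 4.03 in no AAA aortas and 1.56, 1.92 and 2.1 in saline aortas (1.44, SE 0.24, adjusted p = 1.3e-04). Yap1, the stretch-sensitive coactivator of the Hippo pathway, rose to 3.35, 4.05 and 4.25 in no AAA aortas, against 2.54, 2.78 and 3.08 in saline aortas (1.16, SE 0.13, adjusted p = 2.4e-06). The receptor Ror1, the four-jointed homologue Fjx1, the CCN proteins Ccn3 and Ccn5, the coreceptor Cd109 and the transcription factors Gata6 and Foxc2 rose by 1.01 to 1.35, all without overlap. With BeadChip as a fixed block, none of the 20 genes was called between no AAA and AAA aortas, against 6 higher and 2 lower without it.

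Of 29 named genes of the extracellular matrix and its crosslinking, 26 rose in no AAA aortas and none fell, with a median difference of 0.95. Of these, 15 rose without overlap. The shares of all probes were 35.0% higher and 14.6% higher without overlap. All but 2 of the 29 matrix genes rose in AAA aortas (27 of 29), with a median of 1.55. Between the infused groups, 17 of the 29 were lower and 1 higher in no AAA aortas, and with BeadChip as a fixed block 5 were lower and none higher. The study had listed 13 of the 29 for no AAA against saline. Spp1, osteopontin, a matrix protein secreted by macrophages and smooth muscle, was at 6.06, 6.73 and 7.4 in no AAA aortas and 3.17, 4.55 and 5.56 in saline aortas (2.19, SE 0.32, adjusted p = 3.9e-05). Tnc, tenascin C, was at 4.38, 4.75 and 5.22 in no AAA aortas, against 3.27, 3.43 and 3.66 in saline aortas (1.32, SE 0.15, adjusted p = 3.2e-06). Fn1, fibronectin, was at 6.66, 7.04 and 7.76 in no AAA aortas and 5.61, 5.78 and 6.47 in saline aortas (1.27, SE 0.2, adjusted p = 6.3e-05). None of these overlapped between groups. Lox, lysyl oxidase, the enzyme that crosslinks elastin and collagen, rose to 7.17, 7.36 and 7.7 in no AAA aortas, against 6.11, 6.32 and 6.59 in saline aortas (1.05, SE 0.13, adjusted p = 6.3e-06), and stayed below AAA aortas (-0.64, SE 0.14, adjusted p = 0.0028), a call that was lost with BeadChip as a fixed block (-0.63, adjusted p = 0.16). Eln, elastin, rose to 7.21, 8.09 and 8.61 in no AAA aortas, against 6.44, 6.95 and 7.51 in saline aortas, with overlap (0.95, SE 0.22, adjusted p = 0.0018). Its difference between no AAA and AAA aortas did not pass (-0.47, SE 0.23, adjusted p = 0.16). Postn, periostin (1.31, SE 0.27, adjusted p = 7.9e-04), the collagen chain Col5a2 (1.08, SE 0.18, adjusted p = 1.2e-04), the thrombospondins Thbs1 (0.98, SE 0.29, adjusted p = 0.0094) and Thbs2 (1.03, SE 0.26, adjusted p = 0.0040), the lysyl oxidase homologue Loxl2 (1.09, SE 0.23, adjusted p = 9.3e-04) and the microfibril protein Mfap5 (0.77, SE 0.11, adjusted p = 2.9e-05) rose without overlap as well. The collagen chains Col1a2 (0.8, SE 0.18, adjusted p = 0.0014), Col5a1 (0.66, SE 0.17, adjusted p = 0.0035) and Col15a1 (0.82, SE 0.2, adjusted p = 0.0028), the fibrillin Fbn1 (0.58, SE 0.14, adjusted p = 0.0023) and the crosslinking enzyme Loxl1 (0.55, SE 0.13, adjusted p = 0.0026) rose with overlapping arrays.

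The fibrillar collagen genes Col3a1 and Col1a1 were lower in no AAA than in AAA aortas. Col3a1 was at 6.09, 6.54 and 7.02 in no AAA aortas and 5.34, 5.77 and 6.24 in saline aortas (0.84, SE 0.16, adjusted p = 4.1e-04), and its difference to AAA aortas was -0.53 (SE 0.17, adjusted p = 0.032), which did not pass with BeadChip as a fixed block (-0.59, adjusted p = 0.26). Col1a1 did not pass, at 5.2, 5.91 and 6.59 in no AAA aortas and 5.02, 5.41 and 6.01 in saline aortas (0.48, SE 0.21, adjusted p = 0.070), and lay well below AAA aortas (-1.66, SE 0.22, adjusted p = 2.1e-04), also with that block (-2.03, adjusted p = 0.019). Against saline aortas it did pass without saline 1 or without no AAA 5 (down to 0.022), with array weights (0.034) and with the replicate block (0.020). The laminin-binding protein Nid2 (0.08, SE 0.22, adjusted p = 0.78) and Col12a1 (0.57, SE 0.28, adjusted p = 0.10) did not pass either, although both rose in AAA aortas. Col12a1 did pass when fitted on no AAA and saline arrays only (0.0016), in the methods' t-test after Benjamini-Hochberg adjustment (0.0052) and with array weights (0.038). The calls of Comp and Ltbp2 depended on single arrays. Comp, a collagen-binding cartilage protein (0.65, SE 0.23, adjusted p = 0.028), was lost without saline 2, 3 or 6 or no AAA 1, 3 or 6 (up to 0.065) and under 5 other settings (up to 0.15), and the elastic fibre protein Ltbp2 (0.63, SE 0.22, adjusted p = 0.025) without saline 2 or no AAA 1, 3 or 4 (up to 0.063) and under 4 other settings (up to 0.10). Comp differed by -2.06 (SE 0.24, adjusted p = 8.2e-05) between no AAA and AAA aortas. Col4a2 and Col8a1 lost their calls when arrays were scaled to the probes detected on all arrays (0.083 and 0.056), Col8a1 also after quantile normalization (0.051). Another probe of Col8a1 differed by 0.98 (adjusted p = 0.0059) in the fit used here. The basement membrane chains Lamb2 (1.09, SE 0.18, adjusted p = 1.0e-04) and Col4a6 (1.05, SE 0.21, adjusted p = 6.0e-04), the collagen hydroxylase P3h2 (1.02, SE 0.19, adjusted p = 2.7e-04) and Sec24d, a coat protein of collagen export (1.16, SE 0.12, adjusted p = 1.6e-06), rose without overlap and were not called between no AAA and AAA aortas.

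Among matrix proteases and their inhibitors, 6 of 11 rose and none fell in no AAA aortas, beside 35.0% and 10.1% of all probes. In AAA aortas 10 rose and 1 fell. Scaled to the probes detected on all arrays, 5 rose and 1 fell in no AAA aortas. Quantile normalization and normexp correction each gave 6 higher and 1 lower. Mmp12, the elastase of macrophages, was at 3.55, 4.58 and 4.99 in no AAA aortas, against 0.94, 3.16 and 3.27 in saline aortas (1.88, SE 0.38, adjusted p = 6.0e-04). Mmp3, stromelysin, was at 5.65, 6.03 and 6.46 in no AAA aortas and 4.74, 5.03 and 5.46 in saline aortas (0.96, SE 0.16, adjusted p = 1.5e-04). Both separated the groups. Mmp13, a collagenase, also did not overlap, with 1.3, 2.03 and 2.51 in no AAA and 0.38, 0.77 and 1.04 in saline aortas, but did not pass the fit (1.08, SE 0.45, adjusted p = 0.057), whose spread included the AAA arrays. Fitted on no AAA and saline arrays only, its adjusted p was 3.2e-04, and it also passed under 3 other settings. Timp1, an inhibitor, did not pass either (0.91, SE 0.39, adjusted p = 0.063), and did without saline 5 or no AAA 7 (down to 0.027), in the fit of no AAA and saline arrays only (0.021), with array weights (0.013) and with the replicate block (0.021). Between no AAA and AAA aortas, Mmp13 differed by -2.68 (SE 0.48, adjusted p = 9.1e-04) and Timp1 by -1.42 (SE 0.41, adjusted p = 0.020). With BeadChip as a fixed block these differences were -2.44 (adjusted p = 0.16) and -2.46 (0.069).

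Genes of fat and of mitochondrial energy use were lower in no AAA aortas. Of 20 brown fat genes all 20 fell in no AAA aortas, with a median difference of -2.01. Of 26 white fat genes 25 fell (median -1.57), and so did all 18 genes of lipogenesis (-1.66), all 21 of fatty acid oxidation (-1.4) and all 18 of the citric acid cycle and pyruvate dehydrogenase (-1.4). The background of lower calls was 10.1%. In AAA aortas all 18 genes of lipogenesis fell too (median -1.45), as did all 21 of fatty acid oxidation (-1.29) and all 18 of the citric acid cycle list (-1.3). Between the infused groups, without BeadChip in the fit, 1 gene of lipogenesis was lower in no AAA aortas, and none of the others was called. Of the 26 white fat genes 25, and of the 20 brown fat genes 19, had been listed by the study for this comparison. In AAA aortas 20 of 20 brown fat genes fell as well (median -1.97), and between the infused groups 1 was higher and none lower in no AAA aortas. Of the white fat genes 23 of 26 fell in AAA aortas (median -1.22), and 7 were lower and none higher in no AAA than in AAA aortas (median -0.48); with BeadChip as a fixed block 2 were lower. In bulk tissue, fewer cells of a type and less RNA per cell cannot be told apart. The summed signal of the brown fat list was 171 to 866 array medians on no AAA arrays, against 1430 to 2112 on saline arrays, so that the ranges did not overlap. Slc27a2, a fatty acid transport protein, was at 0.41, 1.58 and 3.22 in no AAA aortas, against 5.09, 5.3 and 6.13 in saline aortas (-3.62, SE 0.41, adjusted p = 3.3e-06), the largest decrease of the listed genes. Otop1, a proton channel of brown fat (-3.05, SE 0.33, adjusted p = 2.5e-06), the lipid droplet protein Cidea (-2.7, SE 0.32, adjusted p = 4.7e-06) and Thrsp, which promotes lipogenesis (-2.7, SE 0.26, adjusted p = 1.0e-06), fell without overlap, and so did the white fat genes Cidec, another lipid droplet protein (-2.38, SE 0.27, adjusted p = 3.4e-06), Dgat2 (-2.38, SE 0.26, adjusted p = 2.5e-06) and Agpat2 (-2.32, SE 0.29, adjusted p = 9.5e-06), enzymes of triglyceride synthesis, and the glycerol channel Aqp7 (-2.27, SE 0.27, adjusted p = 5.8e-06). Lncbate10, a long noncoding RNA of brown fat, was at -0.24, 0.31 and 1.55 in no AAA aortas, where it was detected on 5 of 7 arrays, against 3.14, 3.86 and 4.75 in saline aortas (-3.35, SE 0.29, adjusted p = 4.3e-07). Cpt1b, the muscle and brown fat form of the enzyme that admits fatty acids to mitochondria, was at 1.83, 2.63 and 4.15 in no AAA aortas and 5.34, 5.75 and 6.21 in saline aortas (-2.93, SE 0.31, adjusted p = 1.8e-06). Elovl6, which elongates palmitate, fell to 2.95, 3.79 and 4.7 in no AAA aortas, against 6.28, 6.6 and 7.43 in saline aortas (-2.96, SE 0.36, adjusted p = 7.0e-06). Nrg4, a signal that brown fat secretes, was at 0.22, 1.33 and 2.44 in no AAA aortas and 3.59, 4.09 and 4.75 in saline aortas (-2.77, SE 0.31, adjusted p = 3.0e-06). None of these overlapped either. The highest no AAA value of Lncbate10, Cpt1b, Elovl6 and Nrg4 was on no AAA 6 in each case. Aspg, an asparaginase (-3.01, SE 0.26, adjusted p = 4.5e-07), and the tetraspanin Tspan18 (-2.77, SE 0.25, adjusted p = 6.8e-07) had differences of like size.

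Enzymes of other energy pathways fell as well, against a background of 10.1% lower probes. All 18 genes of glucose and insulin handling were lower in no AAA aortas (median -1.53), among them Fbp2, a fructose bisphosphatase of muscle (-2.54, SE 0.2, adjusted p = 3.9e-07), Pygl, a glycogen phosphorylase (-2.23, SE 0.24, adjusted p = 2.5e-06), and Slc2a4, the insulin-regulated glucose transporter (-1.86, SE 0.22, adjusted p = 5.4e-06). All 11 peroxisomal genes fell (median -1.37), among them the coenzyme A hydrolase Nudt7 (-1.68, SE 0.16, adjusted p = 8.1e-07) and the division factor Pex11a (-1.53, SE 0.19, adjusted p = 7.9e-06). All 14 genes of amino acid breakdown fell too (median -1.22), among them the transaminase Gpt (-1.81, SE 0.22, adjusted p = 6.3e-06) and glutamine synthetase, Glul (-1.55, SE 0.22, adjusted p = 3.0e-05). Pck1, which makes glycerol for triglycerides in fat, was at 0.7, 1.74 and 2.79 in no AAA aortas and 3.17, 3.97 and 4.62 in saline aortas (-2.25, SE 0.36, adjusted p = 7.9e-05). Pdk4, which switches off pyruvate dehydrogenase, was at 3.77, 4.71 and 5.5 in no AAA aortas, against 5.61, 6.91 and 7.22 in saline aortas (-1.91, SE 0.28, adjusted p = 3.5e-05). The coactivators of mitochondrial biogenesis Ppargc1a (-1.68, SE 0.25, adjusted p = 3.9e-05) and Ppargc1b (-1.85, SE 0.22, adjusted p = 4.7e-06) fell beside 14 further genes of that list, 16 of 16. In AAA aortas 17 of 18 glucose, 11 of 11 peroxisomal, 13 of 14 amino acid and 15 of 16 biogenesis genes fell too. Their medians were -1.22, -1.09, -1.14 and -1.03. Between no AAA and AAA aortas, 1 glucose gene was higher and 2 lower, and likewise 1 and 2 of the peroxisomal genes. In the other lists 1 gene each was lower.

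Carbonic anhydrases, which hydrate carbon dioxide and supply bicarbonate to lipogenesis and other pathways, were lower in no AAA aortas for all 5 with a named probe, each without overlap and each listed by the study. Over all probes 10.1% were lower, and 5.34% lower without overlap. All 5 carbonic anhydrases also fell in AAA aortas (median -0.82), and 1 of them was lower in no AAA than in AAA aortas. The membrane-bound Car4 was at 0.61, 0.95 and 1.61 in no AAA aortas and 2.43, 2.85 and 3.2 in saline aortas (-1.85, SE 0.22, adjusted p = 5.3e-06). The cytosolic Car13 was at 1.5, 2.01 and 2.65 in no AAA aortas, against 2.91, 3.62 and 4.1 in saline aortas (-1.54, SE 0.2, adjusted p = 1.3e-05), and also lay below AAA aortas (-0.93, SE 0.21, adjusted p = 0.0046). Car3, an abundant protein of fat and muscle, was at 6.72, 7.52 and 7.97 in no AAA aortas and 8.44, 8.51 and 8.66 in saline aortas (-1.06, SE 0.17, adjusted p = 8.1e-05). The mitochondrial Car5b fell to 3.11, 4.13 and 4.37 in no AAA aortas, with its lowest value on no AAA 7, against 4.52, 4.97 and 5.36 in saline aortas (-1.01, SE 0.18, adjusted p = 2.3e-04). Car14 was detected on all 6 saline arrays and on 0 of 7 no AAA arrays, so its level there is only a bound. Taken against the lowest detected signal of each no AAA array, it was at least 1.6-fold lower in no AAA than in saline aortas (adjusted p = 2.7e-06), with measured means of -0.29 and 0.87.

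The respiratory chain is encoded in 2 genomes, and the transcripts of the mitochondrial genome and the control genes were the 2 lists whose probes carried their own names and had not been chosen by the study. Among nuclear genes, 22 of 23 of complex I and 20 of 20 of complexes III to V were lower in no AAA aortas, beside 10.1% of all probes. The medians were -1.08 and -1.38. In AAA aortas 23 of 23 and 19 of 20 were lower than in saline aortas (medians -1.14 and -1.29). Without BeadChip in the fit, none was called between no AAA and AAA aortas (medians 0.1 and -0.05). Among 12 transcripts of the mitochondrial genome, 1 was higher (ATP8, 0.27, SE 0.08, adjusted p = 0.0093) and 1 lower (ND5, -0.3, SE 0.11, adjusted p = 0.034), with a median of -0.07. Scaled to the probes detected on all arrays, none was higher and 5 lower, CytB among them (adjusted p = 0.018). The median was then -0.24, and the call of ATP8 was lost (0.42). The ND5 call was lost without saline 1, 2, 3 or 6 or without no AAA 1, 2 or 4 (up to 0.070), and under 4 of the other settings. CytB, of complex III, was at 8.8, 8.89 and 8.98 in no AAA aortas and 8.9, 8.95 and 9.1 in saline aortas (-0.09, SE 0.07, adjusted p = 0.30). COXI, of complex IV, was at 8.5, 8.67 and 8.85 in no AAA aortas and 8.54, 8.72 and 8.8 in saline aortas (-0.02, SE 0.07, adjusted p = 0.80). These ranges overlapped widely. The mean signals of 11 of the 12 mitochondrial transcripts were 24414 to 63954, however, while the highest signal of any probe was 61957 to 69424 per array, so that most of them lay near the top of the scale, where differences may be compressed. Whether this limited their differences was not tested. Ndufv1, of complex I, was at 5.82, 6.15 and 6.37 in no AAA aortas, against 7.24, 7.39 and 7.72 in saline aortas (-1.29, SE 0.11, adjusted p = 4.3e-07), and Ndufa10 was at 4.99, 5.51 and 5.88 in no AAA aortas, against 6.43, 6.87 and 7.44 in saline aortas (-1.49, SE 0.16, adjusted p = 2.0e-06). Cox7a1 and Cox8b, the forms of complex IV subunits found in heart, muscle and brown fat, had the largest decreases of this list, -3.6 (SE 0.39, adjusted p = 2.4e-06) and -2.95 (SE 0.41, adjusted p = 2.5e-05).

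No AAA 7 stood lower than the other no AAA arrays for nuclear genes of the chain. Its median difference from the saline means was -1.93 over complex I, beside -0.97 for no AAA 1 to 6, and -2.44 over complexes III to V, beside -1.2. For the mitochondrial transcripts it was -0.05. ND3, the only dim one, with a mean signal of 338, was an exception, at -0.01 on no AAA 7 within a no AAA range of -0.01, 1.61 and 1.97, against 1.4, 1.7 and 2.09 in saline aortas (-0.33, SE 0.23, adjusted p = 0.26). Ndufb9 was at 3.23 on no AAA 7, the lowest of a no AAA range of 3.23, 4.09 and 4.43, against 4.8, 5.25 and 5.67 in saline aortas. Atp5k, a small subunit of the ATP synthase, was at 0.83 on no AAA 7, against 3.74, 4.33 and 4.79 in saline aortas (-1.61, SE 0.36, adjusted p = 0.0017). AAA 4, also on BeadChip 3, was the lowest AAA array for both nuclear lists, with mean log2 signals of 4.57 and 4.75. The other AAA arrays ran from 5.11 to 5.33 over complex I and from 5.13 to 5.53 over complexes III to V. Fitted without no AAA 7, 22 of 23 genes of complex I and 19 of 20 of complexes III to V were lower. The lost call was that of Cox6a2, the heart and muscle form, whose no AAA arrays ran from -0.49 to 4.67 and which was also lost without any 1 of 7 other arrays (saline 1, 2, 4 or 5, or no AAA 1, 2 or 3, up to 0.081).

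**Figure D3:**
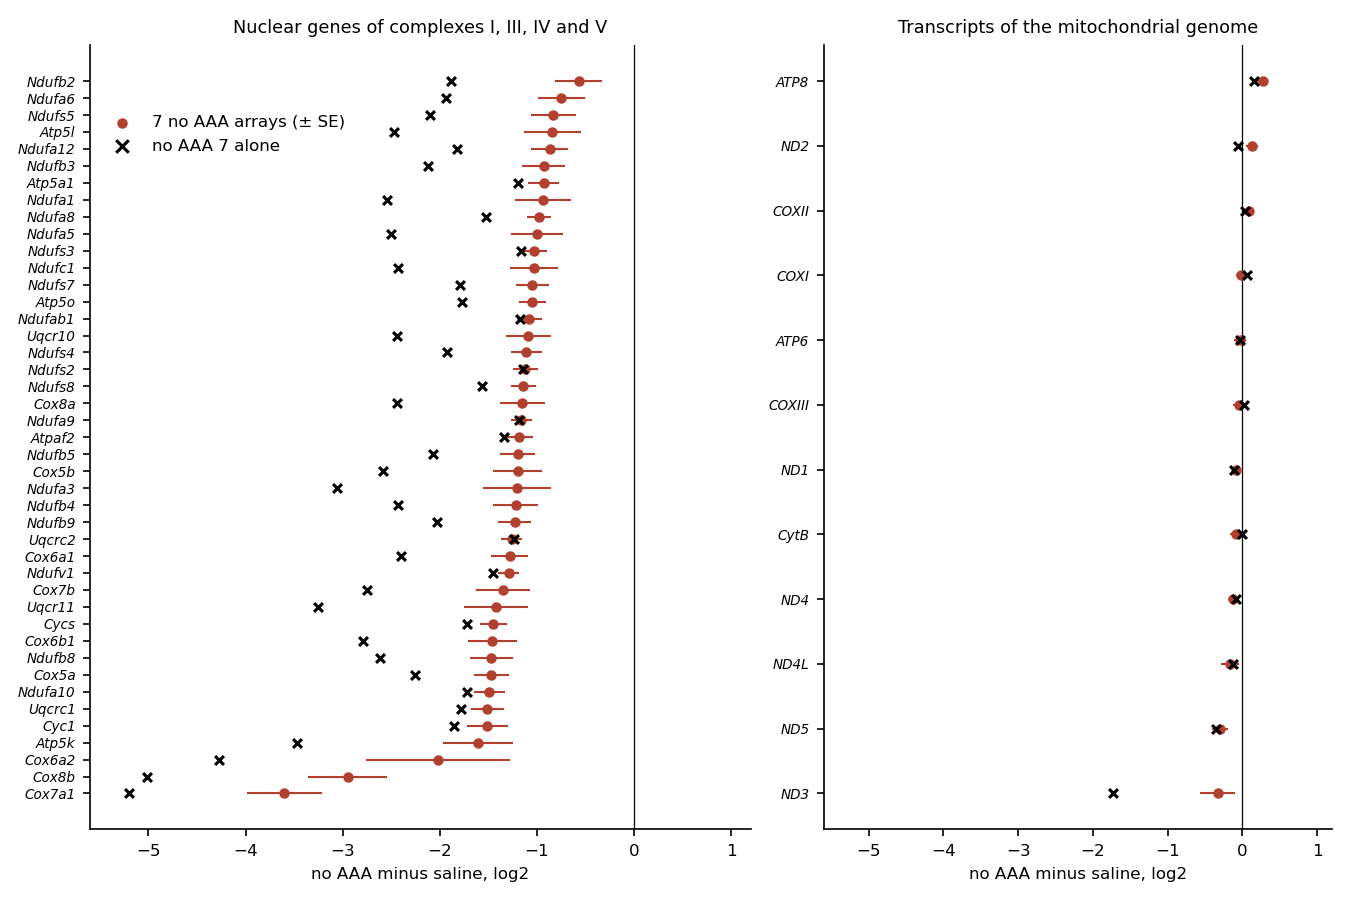
Difference in log2 signal between no AAA and saline aortas for the nuclear genes of complexes I, III, IV and V (left) and for transcripts of the mitochondrial genome (right), with the mean of 7 no AAA arrays against 6 saline arrays (red, ± SE of the fit) and no AAA 7 alone against the saline mean (black crosses). All nuclear genes lie left of 0, and no AAA 7 lies left of the mean for all but Uqcrc2, while the means of the mitochondrial transcripts apart from ND3 lie between -0.3 and 0.27.

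Of the 7 control genes, Actb (0.3, SE 0.09, adjusted p = 0.011) and Hprt (0.21, SE 0.06, adjusted p = 0.010) were higher and Gapdh was lower (-0.52, SE 0.13, adjusted p = 0.0028) in no AAA aortas, and the other 4 did not pass. Gapdh, the glycolytic enzyme often used as a reference, was at 7.74, 7.8 and 8.09 in no AAA aortas and 8.1, 8.37 and 8.65 in saline aortas, without overlap, and kept its call under every scaling tried. Actb, cytoplasmic β-actin, lost its call when arrays were scaled to the probes detected on all arrays (0.29), and Hprt under that scaling (0.68), quantile normalization and normexp correction (0.28 each).

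Receptors and effectors of adrenergic and cAMP signalling fell for 8 of 10 genes and rose for 2 in no AAA aortas, with a median of -1.16. The shares of all probes were 10.1% lower and 35.0% higher. In AAA aortas 8 of the 10 fell and 1 rose (median -1.07). Between the infused groups 1 was higher in no AAA aortas and none lower. Adrb3, the β3 receptor of fat cells, was at -0.09, 0.13 and 0.33 in no AAA aortas, mostly background, against 0.9, 1.59 and 1.9 in saline aortas (-1.35, SE 0.18, adjusted p = 1.5e-05). Prkar2b, a regulatory subunit of protein kinase A in fat and nerve, was at 4.16, 5.31 and 6.1 in no AAA aortas and 7.32, 7.51 and 7.92 in saline aortas (-2.42, SE 0.28, adjusted p = 3.6e-06). Ppp1r1a, a phosphatase inhibitor that protein kinase A switches on, was at 2.2, 3.64 and 4.21 in no AAA aortas, against 5.16, 5.72 and 6.24 in saline aortas (-2.27, SE 0.25, adjusted p = 2.7e-06). All 3 were lower on every no AAA array, as was the phosphodiesterase Pde3b (-1.44, SE 0.14, adjusted p = 9.4e-07). The 2 genes that rose, named after their values were seen, were Npy1r, the neuropeptide Y receptor of smooth muscle (0.84, SE 0.19, adjusted p = 0.0018), and Pde4b. Npy1r was also higher in no AAA than in AAA aortas (1.29, SE 0.2, adjusted p = 4.5e-04).

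Genes of sympathetic neurons were lower in no AAA than in saline aortas for 18 of 19 named genes, beside 10.1% of all probes. The list median was -1.14, but only 3 of these genes (Kif21a, Tmeff1 and Rgs7) separated the groups, beside 5.34% of all probes. The study had listed 16 of the 19. Npy, neuropeptide Y, the cotransmitter of sympathetic nerves, was at 0.99, 2.05 and 3.23 in no AAA aortas and 2.52, 4.72 and 6.1 in saline aortas (-2.3, SE 0.57, adjusted p = 0.0031). Th, tyrosine hydroxylase, the first enzyme of noradrenaline synthesis, was at -0.53, -0.08 and 0.26 in no AAA aortas, which is background, and at -0.29, 1.0 and 2.49 in saline aortas (-1.11, SE 0.36, adjusted p = 0.018). Dbh, the last enzyme of that synthesis, was at -0.55, -0.12 and 0.75 in no AAA aortas, against -0.16, 1.44 and 3.06 in saline aortas (-1.35, SE 0.43, adjusted p = 0.016). For each of these 3 the lowest saline arrays lay within the no AAA range. The saline arrays differed among themselves. The mean log2 signal over the 19 genes was 0.47 to 1.45 on no AAA arrays, and on saline arrays 3.28 (saline 1), 2.53 (saline 4), 2.2 (saline 5), 2.13 (saline 3), 1.16 (saline 2) and 0.95 (saline 6). Saline 2 and 6 thus lay within the range of the no AAA arrays. The synaptic protein Snap25 (-1.81, SE 0.64, adjusted p = 0.028), the neuronal sulfotransferase Sult4a1 (-1.37, SE 0.49, adjusted p = 0.029), the GTPase Rit2 (-1.41, SE 0.52, adjusted p = 0.034), the amine-forming decarboxylase Ddc (-1.36, SE 0.49, adjusted p = 0.030) and the neurotrophin receptor Ngfr (-1.4, SE 0.48, adjusted p = 0.023) depended on single arrays. Snap25 and Sult4a1 were lost without saline 1, 3, 4 or 5 or no AAA 2 (up to 0.072 and 0.079), and Ngfr without saline 1 (0.064). Rit2 was lost without those 4 saline arrays or no AAA 2, 3, 4 or 6 (up to 0.093), and Ddc without them or no AAA 2, 4 or 6 (up to 0.083). The methods' t-test after Benjamini-Hochberg adjustment, which does not pool the spread, kept 5 of the 18 calls. The axonal proteins Gap43 (-1.05, SE 0.34, adjusted p = 0.018) and Stmn3 (-1.24, SE 0.3, adjusted p = 0.0029), the vesicle proteins Rab3b (-1.16, SE 0.37, adjusted p = 0.015), Cadps (-1.01, SE 0.31, adjusted p = 0.013) and Scg2 (-0.75, SE 0.23, adjusted p = 0.012), the RNA-binding Elavl2 (-1.11, SE 0.34, adjusted p = 0.013) and the ganglionic receptor Chrna3 (-1.05, SE 0.32, adjusted p = 0.011) fell with overlap. Kif21a, an axonal kinesin, was at 0.97, 1.18 and 1.76 in no AAA aortas and 1.8, 2.34 and 3.18 in saline aortas (-1.14, SE 0.19, adjusted p = 1.5e-04). Map1b, a microtubule protein also found outside nerve, did not pass (0.58, SE 0.26, adjusted p = 0.079) except without saline 1 or no AAA 3 (down to 0.046) and under 3 other settings (down to 0.0072). In AAA aortas 3 of the 19 were lower than in saline aortas, with a median of -0.68. Tested against AAA aortas, 2 of the 19 were higher and 2 lower in no AAA aortas, so most were not called between the infused groups.

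Heart muscle genes were lower in no AAA aortas for 8 and higher for 1 of 12 named genes, beside 10.1% and 35.0% of all probes. The list median was -1.18, and in AAA aortas 10 of 12 were lower (median -1.34). The study had listed 7 of the 12. Myl7, the atrial myosin light chain, was at 0.12, 0.33 and 2.82 in no AAA aortas, with most arrays near background, and at 1.77, 3.09 and 5.85 in saline aortas (-2.4, SE 0.56, adjusted p = 0.0021). Actc1, cardiac α-actin, was at 1.52, 2.39 and 3.09 in no AAA aortas and 3.09, 3.9 and 6.08 in saline aortas (-1.78, SE 0.44, adjusted p = 0.0029). Myl7 overlapped through no AAA 1 and 6, and Actc1 touched the saline range at no AAA 6. The cardiac troponin C gene Tnnc1 (-1.73, SE 0.47, adjusted p = 0.0061) and the light chain genes Myl3 (-1.55, SE 0.42, adjusted p = 0.0062) and Myl4 (-1.21, SE 0.35, adjusted p = 0.0096) fell with overlap, as did the muscle protein Csrp3 (-1.14, SE 0.32, adjusted p = 0.0083) and Cox6a2, and only Tcap, a titin-binding protein, fell without (-0.96, SE 0.21, adjusted p = 0.0011). Saline 4 had the highest mean over this list, 4.24, where the other saline arrays ran from 2.4 to 3.33 and the no AAA arrays from 1.47 to 2.78. Xirp1, a protein of muscle adhesions, rose (0.68, SE 0.25, adjusted p = 0.031), but not without saline 2, 3 or 4 or no AAA 5 or 6 (up to 0.068) or under 5 other settings (up to 0.11). The natriuretic peptide convertase Corin (-0.57, SE 0.29, adjusted p = 0.12), the calcium-binding Hrc (-0.47, SE 0.2, adjusted p = 0.065) and the ubiquitin ligase adaptor Fbxo40 (0.31, SE 0.18, adjusted p = 0.18) did not pass. Hrc did, as lower, without saline 3 or no AAA 5 (down to 0.024) and with all 3 other scalings (down to 0.016), and Fbxo40 without saline 1 or no AAA 3 (down to 0.042). Whether differing amounts of nerve, heart or fat tissue in the dissected aortas had a part in these results was not tested.

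**Figure D4:**
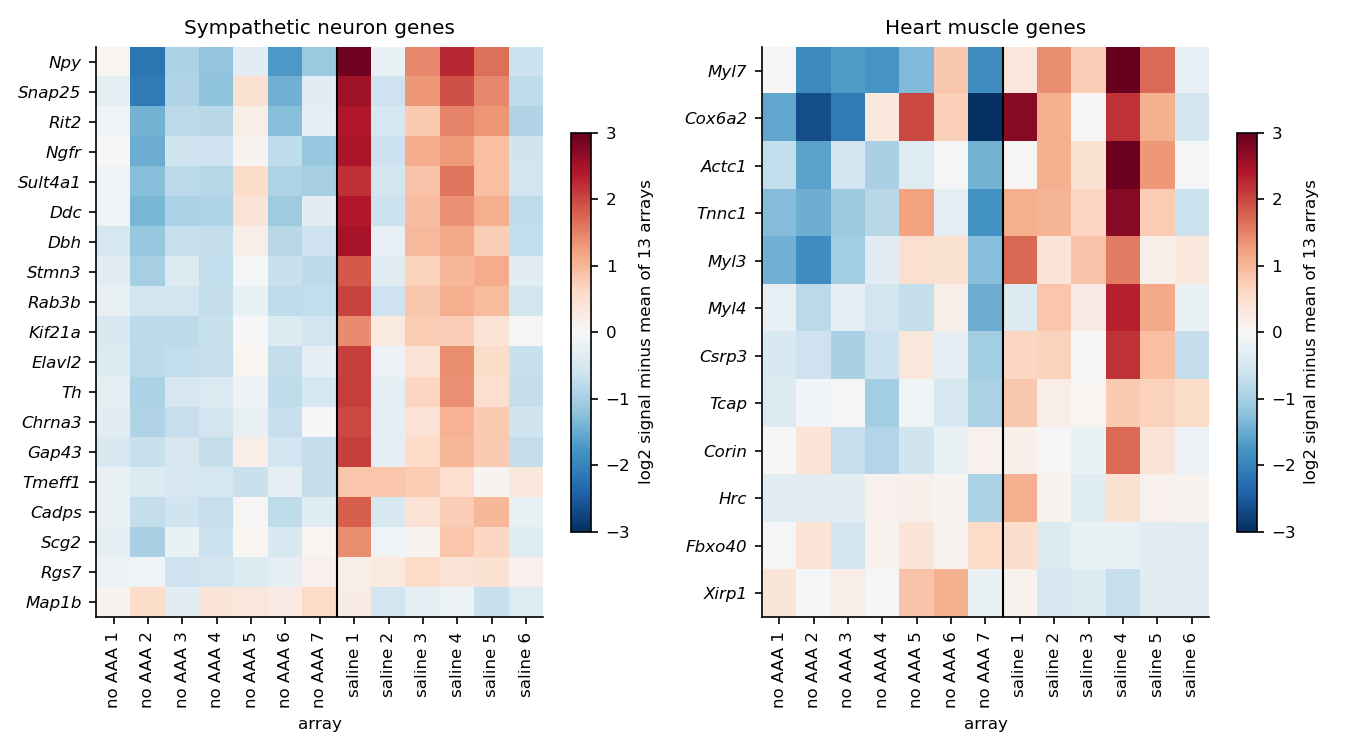
Log2 signal of 19 sympathetic neuron genes (left) and 12 heart muscle genes (right) on each array, 7 no AAA arrays left of the black line and 6 saline arrays right of it, as the difference from the gene's mean over the 13 arrays (colour scale from -3 to 3). Saline 1, 3, 4 and 5 are high for nerve genes while saline 2 and 6 resemble the no AAA arrays, and saline 4 is the highest array for most heart muscle genes.

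Endothelial genes fell for 8 of 10 and rose for 1 in no AAA aortas (median -1.06), beside 10.1% and 35.0% of all probes. AAA aortas had 3 higher and 4 lower (median -0.08), beside 30.5% and 9.22% of all probes. Tested against AAA aortas, 7 of 10 were lower in no AAA aortas, beside 10.8% of all probes. Gpihbp1, which anchors lipoprotein lipase to capillaries, was at 1.38, 2.4 and 3.0 in no AAA aortas and 3.8, 4.07 and 4.3 in saline aortas (-1.7, SE 0.23, adjusted p = 1.7e-05). Rbp7, a retinol-binding protein of endothelium and fat, was at -0.08, 1.13 and 1.75 in no AAA aortas, against 1.95, 2.73 and 3.4 in saline aortas (-1.63, SE 0.34, adjusted p = 9.0e-04). Adgrl4, an adhesion receptor of endothelium, was at 2.13, 2.64 and 2.94 in no AAA aortas and 3.53, 3.8 and 4.1 in saline aortas (-1.22, SE 0.17, adjusted p = 2.7e-05), and differed by -1.08 (SE 0.18, adjusted p = 7.4e-04) between no AAA and AAA aortas. None of the 3 overlapped with saline arrays, and the lowest value of each was on no AAA 7. The gene that rose, named after its values were seen, was Esm1, a proteoglycan of activated endothelium (1.09, SE 0.38, adjusted p = 0.027).

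Genes of plasma proteins and lipid carriers, several of which fat also makes, fell for 15 of 16 and rose for 1, all of them listed by the study. The shares of all probes were 10.1% lower and 35.0% higher. Orm1, an acute phase protein, was at 1.87, 3.44 and 4.0 in no AAA aortas and 5.06, 5.52 and 6.17 in saline aortas (-2.38, SE 0.31, adjusted p = 1.3e-05). Kng1, kininogen, was at 1.91, 2.56 and 3.42 in no AAA aortas, against 4.12, 4.66 and 5.11 in saline aortas (-2.07, SE 0.28, adjusted p = 1.6e-05), with an AAA mean of 4.58. The difference between no AAA and AAA aortas was -2.04 (SE 0.29, adjusted p = 3.1e-04) for Kng1 and -1.77 (SE 0.35, adjusted p = 0.0020) for the apolipoprotein gene Apoc1, whose difference from saline aortas was -2.14 (SE 0.34, adjusted p = 7.3e-05). The carboxylesterase Ces1d differed by -1.91 (SE 0.24, adjusted p = 8.0e-06). Itih2, an inhibitor that coats hyaluronan, was the gene that rose (1.09, SE 0.15, adjusted p = 1.5e-05), and was named after its values were seen.

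Most macrophage genes were lower in no AAA than in AAA aortas. Of 29 macrophage genes 18 rose and none fell in no AAA aortas (median 0.62), all 29 rose in AAA aortas (median 1.86), and 26 were lower in no AAA than in AAA aortas (median -1.17), 16 with BeadChip as a fixed block. The summed signal of the list was 873 to 1529 array medians on no AAA arrays, 1382 to 3804 on AAA arrays and 451 to 789 on saline arrays. When arrays were scaled to the probes detected on all arrays, 11 of 29 rose in no AAA aortas, beside 2940 of all 21434 probes. Mpeg1, the perforin of macrophages, was at 4.11, 4.79 and 5.03 in no AAA aortas and 2.82, 3.44 and 4.34 in saline aortas (1.23, SE 0.28, adjusted p = 0.0019), and differed by -1.31 (SE 0.3, adjusted p = 0.0047) between no AAA and AAA aortas. The highest saline array lay within the no AAA range. Gpnmb, a membrane glycoprotein of macrophages, rose without overlap (1.43, SE 0.23, adjusted p = 8.0e-05). No AAA 7 had the lowest macrophage level, with a median of 0.19 above the saline means beside 0.67 for no AAA 1 to 6. Adhesion and chemokine genes rose less often than all probes did (35.0%), and fell about as often (10.1%). Of 16 genes of adhesion and chemokines, 3 rose and 2 fell in no AAA aortas, and 15 were lower in no AAA than in AAA aortas, 8 with BeadChip as a fixed block. Cxcl9, a chemokine that interferon γ induces, fell to 0.72, 1.45 and 1.98 in no AAA aortas, against 2.45, 2.73 and 3.31 in saline aortas, without overlap (-1.3, SE 0.17, adjusted p = 1.6e-05), and differed by -1.64 (SE 0.18, adjusted p = 7.7e-05) between no AAA and AAA aortas. Cxcl1, which attracts neutrophils, rose by 1.16 (SE 0.42, adjusted p = 0.032), but lost its call without saline 3, 4 or 6 or no AAA 2, 3 or 4 (up to 0.069) and under 5 other settings (up to 0.078).

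Few lymphocyte and neutrophil genes passed the test against saline aortas, where 35.0% of all probes were higher and 10.1% lower. Of 8 T and NK cell genes 1 rose (Il7r, the interleukin 7 receptor, 0.87, SE 0.27, adjusted p = 0.013), and its call ended with the methods' t-test (0.061) and with scaling to the probes detected on all arrays (0.052). Of 6 B cell genes 2 fell, of which Irf4, a transcription factor that fat cells also use, was at 0.49, 1.16 and 1.7 in no AAA aortas and 1.71, 2.51 and 3.45 in saline aortas, without overlap (-1.39, SE 0.24, adjusted p = 2.0e-04). The antibody gene Igkc (-1.99, SE 0.77, adjusted p = 0.043) lost its call without any 1 of 8 arrays (saline 1, 2 or 3, or no AAA 1, 4, 5, 6 or 7, up to 0.12) and under 5 other settings. None of 5 neutrophil genes passed, but 4 were lower in no AAA than in AAA aortas, beside 10.8% of all probes. S100a8, a calcium-binding protein of neutrophils, was at 1.06, 2.91 and 4.64 in no AAA aortas and 2.87, 3.69 and 5.69 in saline aortas (-1.02, SE 0.55, adjusted p = 0.14). Saline 1 and 2 were high for B cell genes, with list means of 3.84 and 4.63, where no AAA arrays ran from 1.46 to 2.42.

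Of 5 erythroid genes 3 fell in no AAA aortas, beside 10.1% of all probes. In AAA aortas all 5 fell (median -1.14), beside 9.22% of all probes. Dmtn, dematin, which links spectrin and actin, was at 0.15, 0.71 and 1.84 in no AAA aortas, against 3.14, 3.17 and 3.62 in saline aortas (-2.45, SE 0.21, adjusted p = 4.3e-07). Hbb-b1, a β-globin, had 5.34, 7.32 and 8.68 in no AAA aortas and 7.52, 8.31 and 8.58 in saline aortas (-0.97, SE 0.34, adjusted p = 0.027), a call that was lost without saline 2 or saline 3 (up to 0.058). Genes of fibroblasts rose for 8 of 11 in no AAA aortas, beside 35.0% of all probes. Among them were Lum, lumican (0.87, SE 0.15, adjusted p = 1.4e-04), and Dcn, decorin (0.94, SE 0.2, adjusted p = 0.0011). None of these 11 had been listed by the study for this comparison. Over all probes 10.8% were lower in no AAA than in AAA aortas. Of 11, 9 were lower in no AAA than in AAA aortas, and 3 with BeadChip as a fixed block. The mitochondrial chaperone genes Hspa9 (-0.92, SE 0.16, adjusted p = 1.4e-04) and Hspd1 (-0.87, SE 0.19, adjusted p = 0.0011) were the 2 heat shock genes that fell. Dnajb4, a cochaperone of smooth muscle and heart, was the 1 that rose (0.76, SE 0.27, adjusted p = 0.030), and its call was lost without saline 3 or 4 or no AAA 5 or 6 (up to 0.084) and under 6 other settings (up to 0.10).

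Among the 12 genes with the largest increases in no AAA aortas without overlap, 4 stand outside the groups above. Igfbp2, an insulin-like growth factor binding protein, was at 2.1, 3.09 and 5.17 in no AAA aortas and 1.11, 1.63 and 1.96 in saline aortas (1.69, SE 0.46, adjusted p = 0.0065), with its lowest no AAA value on no AAA 7. Arhgef5, a guanine nucleotide exchange factor, was at 4.07, 4.21 and 4.46 in no AAA aortas, against 2.22, 2.64 and 2.8 in saline aortas (1.63, SE 0.11, adjusted p = 1.8e-07). Its 7 no AAA arrays spanned less than the distance to the nearest saline array. Foxs1, a transcription factor of pericytes, was at 5.05, 5.64 and 6.27 in no AAA aortas and 3.82, 4.23 and 4.39 in saline aortas (1.47, SE 0.19, adjusted p = 1.3e-05). The transcript 4930579P08Rik, whose function is not given in the sources used here, differed by 1.56 (SE 0.21, adjusted p = 1.7e-05). None of these 4 was called between no AAA and AAA aortas.

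**Figure D5:**
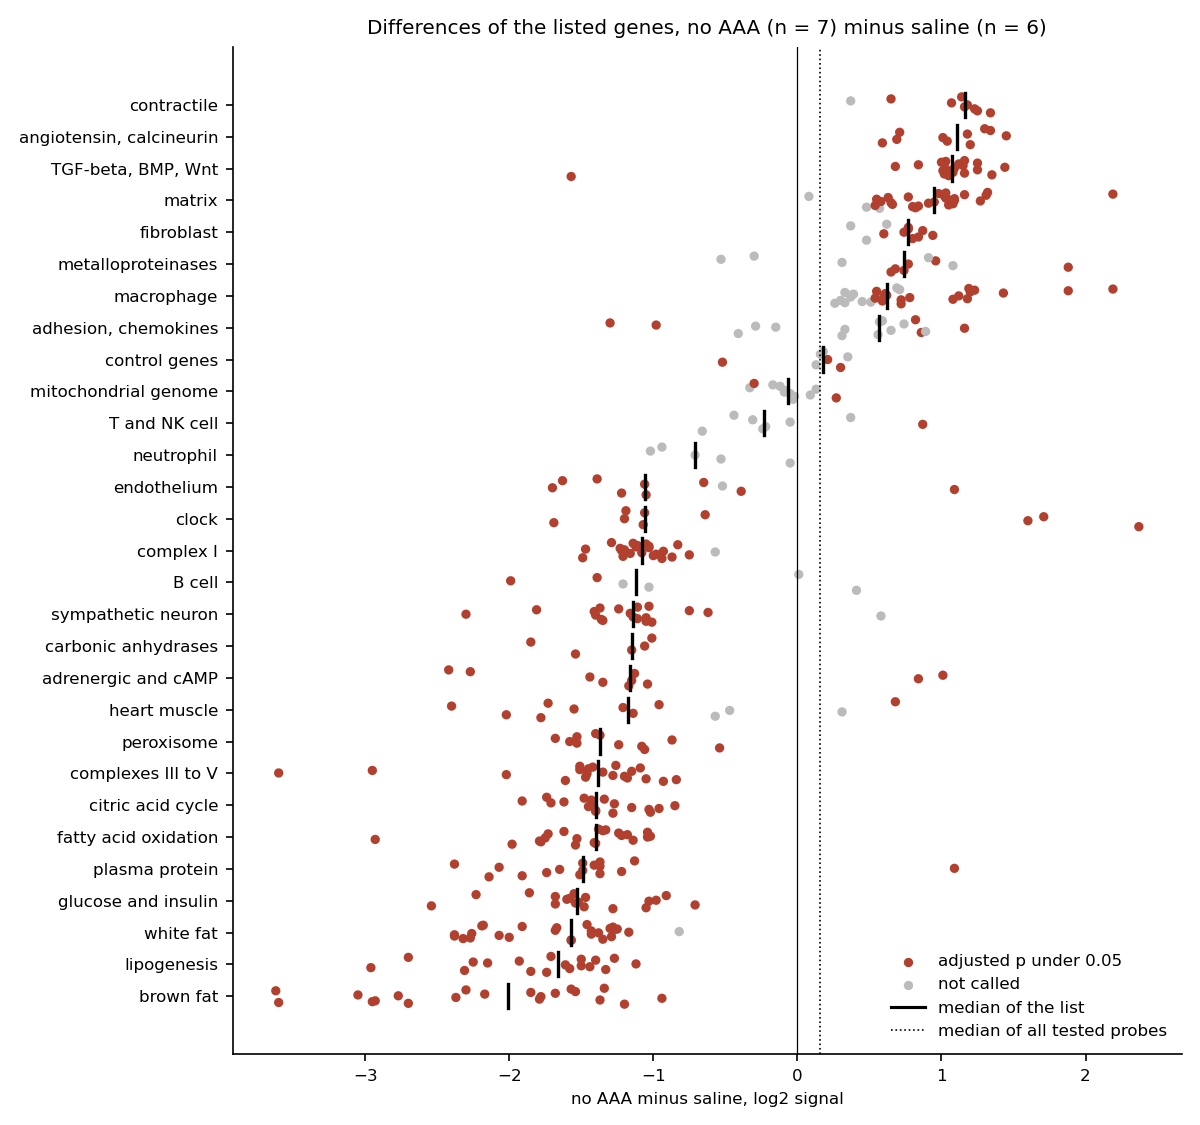
Difference in log2 signal between no AAA (n = 7) and saline (n = 6) aortas for each named gene (points), by gene list, with genes at an adjusted p under 0.05 in red, others in grey, the list median as a bar and the median of all tested probes (0.155) as a dotted line. Contractile, angiotensin-responsive and TGF-β, BMP and Wnt genes have medians of 1.07 to 1.16, brown fat genes a median of -2.01, and the transcripts of the mitochondrial genome and the control genes lie around 0.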

How the data were processed

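Total RNA of whole homogenized aortas (1 mouse per array) was labelled with Cy3 and hybridized to Illumina mouse BeadChips by the authors. The deposited BeadStudio 2 table holds an unnormalized signal intensity and a detection score for each probe on each of 18 arrays. Columns were matched to samples through the sample descriptions, and 108 per-array columns of other measures were not used. The deposited log2 matrix was not used, since 12 of its 18 columns held the values of another array, and neither were the authors' fold changes and p-values in the additional files of the study.

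After averaging 9 repeated probe IDs and leaving out 4 bacterial controls, 46624 probes remained. Each array was divided by its median signal and log2 values were taken, without background subtraction, as the study scaled its arrays. Probes with a detection score above 0.95 on at least 5 of the 18 arrays were tested (21434, 46.0%). A linear model over the no AAA, AAA and saline groups was fitted with limma 3.58.1 (R 4.3.3, statmod 1.5.0) using empirical Bayes with a trend, and adjusted p-values (Benjamini-Hochberg) cover all tested probes. SE is that of the fit. A single mouse per array was hybridized once, so p-values measure the spread between mice of these 3 BeadChips. The fit was tested on simulated data for no AAA against saline over 21434 probes. It recovered 39 of 50 changes of 1.5-fold, 47 of 50 of 2-fold and all 50 of 3-fold and of 4-fold, with 8 false calls. The simulated arrays had independent noise for each probe and no difference between BeadChips or in scaling. The test therefore cannot tell how many calls of the real comparison are false. Array intensities give no counting depth, so precision was limited by the number of arrays.

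Genes were named from probe lists in the additional files, updated through RefSeq (GRCm38.p6): 1237 by accession, 96 by symbol and 109 by synonym, while 107 kept their old name. Where a gene had several probes, the one with the highest mean was used. Of 688 listed genes 451 were tested, and 82 genes had another probe. A few further genes are not reported here. These differed in sign for Cxcl12, and Adgre1, Dcn and Fn1 had another probe without a call. Genes to name were the 4 with the largest differences in each list, the 12 largest increases and 12 largest decreases without overlap, every gene of 8 lists (clock, sympathetic neuron, heart muscle, contractile, carbonic anhydrase, matrix, angiotensin and growth factor), and the mitochondrial and control genes. Some of these, mostly of lists described by their counts, are not named. The genes and lists were chosen with earlier results of these data known. Promoter windows came from RefSeq and motifs were matched with Python 3.11.15 (pandas 2.3.3, numpy 2.4.6), and figures were drawn with matplotlib 3.10.9. The settings tried beside this one were quantile normalization, normexp, other filters, the methods' t-test, a fit of 2 groups, array weights, BeadChip and replicate blocks and leaving out each array. Scaling to the median of probes detected on all arrays was added after the data were seen.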

Additional observations from a re-analysis of the deposited data

Results flagged for a closer look

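Of 450 gene and group pairs (225 named genes), 32 had an array far from the others of its group, where chance gives about 1 in 20. Values are log2 signals. No AAA 7 was the low array for Apoc1 (0.78), Atp5k (0.83), Car5b (3.11), Ndufb9 (3.23), Ppp1r14a (3.9), the chemokine gene Xcl1 (-0.24), Yap1 (3.35) and the mitochondrial transcript ND3 (-0.01). No AAA 6 was the high array for the acyl coenzyme A dehydrogenase Acadvl (6.3), the haem synthesis gene Alas2 (5.18), Fbp2 (1.41), Ppargc1b (3.0) and Usp2 (2.01). Among the other no AAA arrays, no AAA 1 was low for Rgs4 (5.24), no AAA 3 high for Gapdh (8.09), no AAA 4 low for Bhlhe40 (3.9) and Sfrp1 (4.83), and no AAA 5 high for Gap43 (1.86).

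Saline 2 was the high array for the chemokine genes Ccl5 (4.07), Cxcl13 (4.24) and Xcl1 (1.86) and the low array for Col4a2 (6.83) and Ltbp2 (5.24). Saline 3 was high for Elovl6 (7.43) and Tspan18 (4.47) and low for Dcn (4.17). Saline 5 was low for Arntl (0.21) and high for Timp1 (5.63), saline 6 high for the lysyl oxidase homologue Loxl2 (2.82) and low for Usp2 (1.32), saline 1 high for Fbxo40 (3.25) and saline 4 high for Corin (2.64).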

How the results depend on the processing

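Over alternatives other than leaving out an array (other probes of a gene included), 2362 single-gene values kept direction and call, 45 gained the call and 87 lost it, and none of these genes was called in the opposite direction. Nid2, B2m, Tbp and 4 mitochondrial transcripts (COXII, CytB, ND2 and ND4), none of them called in the fit used here, changed sign with the scaling. Scaled to the probes detected on all arrays, CytB and ND4 passed as lower (adjusted p = 0.018 and 0.013). Tbp passed without no AAA 4 (0.045). When single arrays were left out, 2819 kept it, 23 gained and 83 lost it. Probes higher in no AAA than in saline aortas were 4349 after quantile normalization, 4360 after normexp correction and 2940 with scaling to the probes detected on all arrays, which gave 4082 lower. The methods' t-test (at least a 2-fold change and a p under the usual threshold, unadjusted) called 128 higher and 526 lower. It called 13 matrix, 2 protease, 9 macrophage, 1 adhesion and chemokine and 0 fibroblast, T and NK cell, mitochondrial genome and control genes higher, and 1 B cell, 1 erythroid and 0 heat shock genes lower. With Benjamini-Hochberg adjustment it called 0 T and NK cell and 5 adhesion and chemokine genes higher, and 1 B cell, 5 heart muscle and 5 sympathetic neuron genes lower. Scaling to probes detected on all arrays left 11 macrophage, 1 adhesion and chemokine and 0 T and NK cell, mitochondrial genome and control genes higher, with 5 erythroid genes lower. Quantile normalization and normexp each left 1 control gene higher. Restricting the test to probes detected on all arrays left 3 heart muscle and 5 sympathetic neuron genes lower, since fewer genes were tested. Without a filter, and with BeadChip as a random block, 1 adhesion and chemokine gene was higher and 1 B cell gene lower. The fit of 2 groups gave 7 adhesion and chemokine genes higher, and array weights 8, with 2 T and NK cell genes higher and 1 B cell gene lower. For no AAA against AAA aortas, BeadChip as a fixed block left 450 probes higher and 1034 lower, against 1813 and 2310 without it. Where no reason is given, the cause was not tested.

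Replicate numbers follow the position on the BeadChip. The deviations of no AAA and saline arrays of equal number correlated at -0.109, 0.21, -0.044, 0.043, -0.011 and -0.124 for numbers 1 to 6, so the arrays share only a number. The replicate block gave 7120 higher and 1959 lower probes, 2 T and NK cell and 7 adhesion and chemokine genes higher and 1 B cell gene lower.

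Leaving out 1 array gave 6535 to 7409 higher and 1901 to 2240 lower probes, 1 to 2 higher T and NK cell genes (2 without no AAA 7), 1 to 3 lower B cell genes, 1 to 6 higher adhesion and chemokine genes (1 without saline 3, saline 6 or no AAA 2, 6 without no AAA 7) and 2 to 5 lower erythroid genes (5 without saline 4 or no AAA 6). Signals near an array's median lie close to background, so differences of dim genes such as Th, Dbh or Acvr1c are limited from below. Those of the brightest probes are limited from above.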
